A study of Mus musculus with 8 samples.

Results

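The 10 genes described here are gut hormones and genes of the granules that store them: the hormone genes Pyy, Gcg, Cck, Sct, Gip and Nts, the granins Chga and Chgb, the processing enzyme Cpe and the serotonin enzyme Tph1. They were taken by name, with every probe that the platform annotation gives to them, which came to 13 of the 45281 probes on the array. Of the 10 genes, 8 had a probe that was detected on enough arrays to be tested, among 9062 genes tested in all. The samples were mouse intestinal organoids, which are epithelial cultures, profiled on Illumina bead arrays with 1 array per sample.

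All samples shared a C57Bl background, a mutated Apc, tamoxifen, and a medium from which growth factors had been taken out after tamoxifen was added, and the age given for the mice is 3-4 months. The untreated group had 4 samples, and a further 4 samples were given 3 ng/ml TGF-beta over 18 h. Both groups therefore carry the Apc mutation, and there was no sample with intact Apc among them. The labels do not say which promoter drives the recombination by tamoxifen, which part of the intestine was used, or whether samples came from separate cultures or animals, so p-values measure only the spread between these samples.

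Gut hormones are made by enteroendocrine cells, rare secretory cells scattered through the intestinal epithelium. A hormone is made as a longer precursor, cut by prohormone convertases, trimmed by a carboxypeptidase and stored with granins in dense-core granules until a meal or another stimulus releases it. Cells of the lower gut typically make PYY and the glucagon-like peptides together, whereas cells of the upper gut make more CCK, secretin and GIP. Neurogenin 3, encoded by Neurog3, starts the differentiation of this lineage from crypt progenitors.

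The upstream sequences of Pyy and Gcg are shown because these genes are usually expressed in the same cells but differed in the data. Promoter entries were found for 9 of the 10 genes in RefSeq (build GRCm38.p6). The 250 bases before the start of transcription are printed 5′ to 3′ on the strand of the gene, and the capitals mark CANNTG, the E-box core to which basic helix-loop-helix factors such as neurogenin 3 can bind. The window of Pyy is chr11:102107833-102108082, minus strand, and that of Gcg is chr2:62483654-62483903, minus strand.
Pyy: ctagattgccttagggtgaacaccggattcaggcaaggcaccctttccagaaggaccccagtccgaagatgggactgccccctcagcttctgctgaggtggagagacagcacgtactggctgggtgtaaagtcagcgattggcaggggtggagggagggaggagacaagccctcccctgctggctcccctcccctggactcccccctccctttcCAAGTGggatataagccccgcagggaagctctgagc
Gcg: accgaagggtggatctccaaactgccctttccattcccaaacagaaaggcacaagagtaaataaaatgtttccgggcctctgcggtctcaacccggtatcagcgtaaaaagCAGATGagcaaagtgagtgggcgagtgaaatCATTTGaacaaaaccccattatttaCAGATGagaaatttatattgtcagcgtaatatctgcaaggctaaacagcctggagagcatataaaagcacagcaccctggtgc
The Pyy window held 1 CANNTG, 36 bases before the start, and the Gcg window held 3, at 139, 108 and 83 bases before it. Pyy had a second, overlapping entry with another start (window chr11:102107777-102108026, not printed). There the same CANNTG lay 92 bases before the start. CANNTG reads the same on both strands, and it occurred in 66.2% of 32851 such windows of all genes. CAGAC, a short Smad-binding motif, was searched on both strands and was in neither printed window, while 42.2% of all windows held it. Among the 9 genes with an entry, 2 held CAGAC in at least 1 window, Gip and Tph1. These matches describe letters in a window and do not show binding.

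Between 14554 and 16626 probes were detected per array, and the number did not differ between the groups beyond the spread of the samples (exact two-sided permutation test, p = 0.371, 70 assignments, smallest possible p 0.0286). Replicates 2 and 3 of both groups had high Xist, a transcript of the inactive X chromosome (mean log2 intensity 9.66 against 4.58 in replicates 1 and 4), and replicates 1 and 4 had high Y-linked Eif2s3y (8.35 against 4.58). This division crosses the treatment, and values within each set are given below. The best-detected Apc probe had a log2 difference of -0.36 with TGF-beta (adjusted p = 0.0871), which did not pass. Of the 6 epithelial markers, Cdh1, Krt8, Krt18, Krt19 and Cdx2 were detected on all 8 arrays and Epcam on the 4 TGF-beta arrays and 0 untreated ones. With TGF-beta, 5 of the 6 were called higher and Cdx2, a factor of intestinal identity, was called lower by a log2 difference of -1.04 (adjusted p = 0.00193). Over all tested genes, 9.57% were called higher and 9.88% lower. Among the 5, Epcam passed the detection filter through the TGF-beta arrays alone. The summed normalized intensity of the 6 markers was 18508 to 22549 in untreated and 42229 to 52794 in TGF-beta samples. This linear sum is weighted to its brightest genes, Krt8, Krt18 and Krt19. Their mean log2 intensities were 13.41, 11.59 and 11.59 in untreated and 14.72, 12.74 and 13.23 in TGF-beta samples. The part of the 6 markers in the rises of Pyy and Cpe was not tested. Of the 10 enterocyte markers, 7 were tested, while Fabp1 and Fabp2 were not detected on any array. Nor were 7 of 9 enteric neuron markers or 6 of 9 fibroblast and smooth muscle markers. In the latter list Acta2 was detected on 7 arrays, with a log2 difference of 0.70 (adjusted p = 0.175, limma). Des was detected on 3 TGF-beta arrays and Dcn on 1. The summed intensity of that list was 88 to 105 in untreated and 113 to 168 in TGF-beta samples. The part of that list in the rises of Pyy and Cpe was not tested either.

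With TGF-beta, Pyy rose from a level near background, at which it was detected on 1 of 4 untreated arrays, to one detected on all 4 treated arrays. Cpe rose 1.91-fold, and none of the other 6 tested genes passed the test. Thus 2 of 8 tested members were called higher and 0 lower, against a background of 9.57% of all tested genes called higher, 9.88% lower and 19.4% in either direction (limma, Benjamini-Hochberg adjusted p under 0.05 over all tested probes). At an unadjusted p under 0.05 the counts over the members were also 2 and 0, and the shares of all tested genes there are at least those just given. The same 2 genes, Pyy and Cpe, were those whose TGF-beta values lay wholly above the untreated values, a pattern found in 11.9% of all tested genes. Pyy passed the detection filter through the 4 TGF-beta arrays on which it was high, so its place in these counts depends on that filter. Cpe was detected on all 8 arrays. The median log2 difference was 0.27 over the 8 tested members and -0.05 over all tested genes. With the replicate number as a block, 3 members passed (Gip as the third), against a background of 14.4% higher, 17.3% lower and 31.6% in either direction.

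The hormones of the lower gut come first. Pyy encodes peptide YY, which slows gastric emptying and gut transit and curbs appetite. Its normalized log2 intensity was 4.69, 4.73, 4.87 and 5.33 in untreated replicates 1 to 4, and 9.96, 9.75, 9.44 and 9.68 in TGF-beta replicates 1 to 4. Every TGF-beta sample lay far above every untreated sample, and 3 of the 4 untreated samples were not detected above background. The log2 difference was 4.80 (SE 0.180, 95% interval 4.40 to 5.20, adjusted p = 5.58e-07, limma, n = 4 per group).

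Before normalization, the deposited intensity of the Pyy probe ranged from 131 to 153 in untreated samples and from 687 to 1113 in TGF-beta samples. The normalized values correspond to a 27.9-fold rise. Since 3 of the 4 untreated values were not above background, the size of this fold is uncertain, and set against the lowest detected signal of each untreated array in their place it was 23.9. Without background correction the log2 difference was 2.63, and in the authors' deposited value table it was 2.76. The log2 difference was 4.81 within replicates 1 and 4 (adjusted p = 1.26e-06) and 4.79 within replicates 2 and 3 (adjusted p = 1.31e-06).

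**Figure D1:**
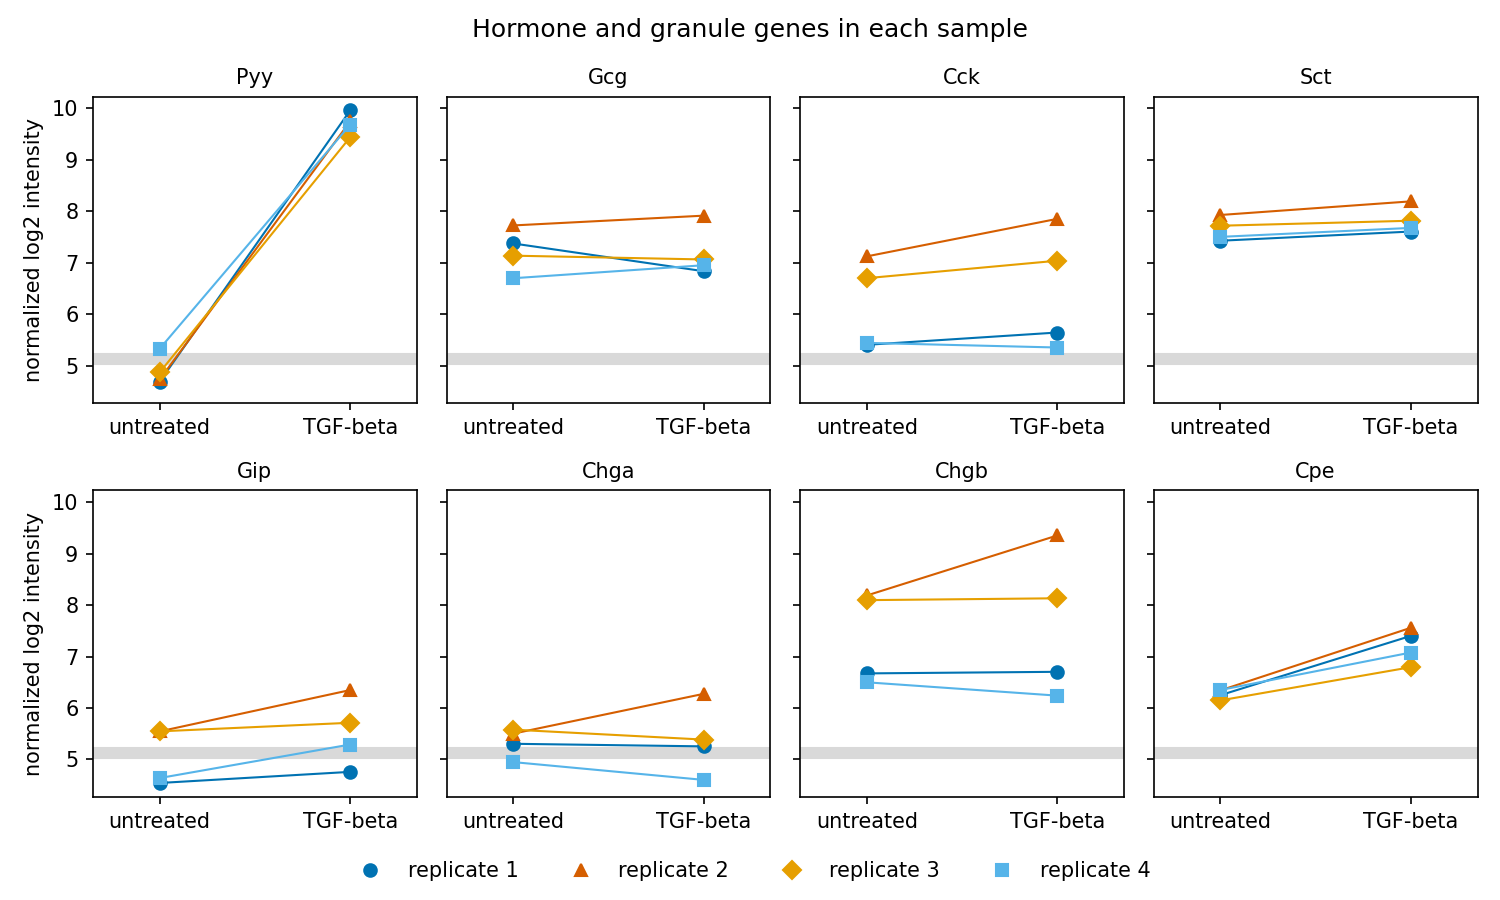
Normalized log2 intensity (vertical axis) of each of the 8 tested genes in the untreated and TGF-beta samples, 1 point per sample with lines joining samples of the same replicate number and the range of the lowest detected signals as a grey band. Pyy lies between 4.69 and 5.33 without TGF-beta and between 9.44 and 9.96 with it, and Cck, Gip and Chgb separate replicates 2 and 3 from 1 and 4 within both groups.

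Gcg encodes proglucagon, the precursor of glucagon-like peptides 1 and 2 in the intestine. Its log2 intensity was 7.38, 7.73, 7.14 and 6.70 in untreated replicates 1 to 4, and 6.84, 7.92, 7.07 and 6.95 with TGF-beta. The groups overlapped, and Gcg was detected on all 8 arrays. The log2 difference was -0.04 (SE 0.274, adjusted p = 0.94), and its 95% interval of -0.65 to 0.57 holds changes of moderate size in either direction.

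Nts encodes neurotensin, a peptide of the lower small intestine that favours fat absorption. Its probes could not be tested, since 1 was detected on a single array and the other on none of the 8. The first had a log2 intensity of 4.63, 4.49, 5.10 and 4.62 in untreated samples and 4.80, 5.57, 4.86 and 4.73 with TGF-beta, where replicate 2 was the detected array. No level can be given for Nts in the other samples.

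Of the hormones of the upper gut, Cck encodes cholecystokinin, which contracts the gallbladder and releases pancreatic enzymes. Its log2 intensity was 5.41, 7.13, 6.70 and 5.44 in untreated replicates 1 to 4, and 5.65, 7.86, 7.04 and 5.35 with TGF-beta. The samples divided by replicate number and not by treatment: replicates 2 and 3 were high and replicates 1 and 4 low in both groups. The log2 difference with TGF-beta was 0.30 (SE 0.571, 95% interval -0.96 to 1.57, adjusted p = 0.772).

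Sct encodes secretin, which makes the pancreas release bicarbonate. Untreated and treated levels were close: the log2 intensity was 7.43, 7.93, 7.72 and 7.50 in untreated samples and 7.61, 8.20, 7.82 and 7.68 with TGF-beta. The TGF-beta sample was higher than the untreated sample of the same number in all 4 pairs, by 0.10 to 0.26 on the log2 scale, but the groups overlapped. The mean log2 difference was 0.18 (SE 0.175, 95% interval -0.21 to 0.57, adjusted p = 0.544). It depended on the scaling of the arrays, and under median scaling it was 0.0045 (adjusted p = 0.993). Before normalization, the deposited intensity of replicate 2 was lower with TGF-beta (313) than without (382), while that of the other replicates was higher.

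Gip encodes the glucose-dependent insulinotropic peptide, which raises insulin release after a meal. Its log2 intensity was 4.54, 5.55, 5.55 and 4.64 in untreated replicates 1 to 4, where it was detected in replicates 2 and 3. With TGF-beta it was 4.76, 6.35, 5.71 and 5.29, and it was detected in replicates 2, 3 and 4. In replicates 2 and 3, detected in both groups, the TGF-beta sample was higher by 0.80 and 0.17, and the other 2 pairs hold values not above background.

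The log2 difference of Gip was 0.46 (SE 0.351, 95% interval -0.32 to 1.24, adjusted p = 0.422), which did not pass. With the replicate number as a block it passed narrowly (adjusted p = 0.0449), and with the set of replicates as a block it did not (adjusted p = 0.0573). The call for Gip therefore rests on how the samples are paired.

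Chga and Chgb encode chromogranin A and secretogranin 1, acidic proteins that help to pack hormones into granules and serve as general markers of endocrine cells. The best-detected Chga probe had a log2 intensity of 5.31, 5.50, 5.58 and 4.95 in untreated samples and 5.26, 6.28, 5.39 and 4.60 with TGF-beta. It was close to background and detected on 3 arrays of each group, and the groups overlapped. With TGF-beta it differed by 0.05 on the log2 scale (SE 0.306, 95% interval -0.63 to 0.72, adjusted p = 0.942).

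A second Chga probe gave a log2 difference of -0.09 (adjusted p = 0.839), and the third was detected on 1 array and not tested. The sign of so small a difference depends on the scaling of the arrays, and under median scaling the best-detected probe gave -0.10. Chga thus showed no change that these arrays could resolve.

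Chgb had a log2 intensity of 6.67, 8.19, 8.10 and 6.50 in untreated replicates 1 to 4, and 6.70, 9.35, 8.13 and 6.24 with TGF-beta. Replicates 2 and 3 of each group were above replicates 1 and 4 of both groups, as for Cck. The log2 difference with TGF-beta was 0.24 (SE 0.650, adjusted p = 0.847), with a wide 95% interval of -1.20 to 1.68.

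Cpe encodes carboxypeptidase E, which removes basic residues from the cut ends of prohormones and is also found in other cells with a regulated secretory pathway. Its log2 intensity was 6.25, 6.34, 6.15 and 6.35 in untreated samples and 7.40, 7.56, 6.79 and 7.08 with TGF-beta. All 4 TGF-beta samples were above all untreated samples, and Cpe was detected on all 8 arrays. On the log2 scale it rose by 0.94 (SE 0.177, 95% interval 0.54 to 1.33, adjusted p = 0.00531).

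The log2 difference of Cpe was 0.94 within replicates 1 and 4 (adjusted p = 0.0254) and 0.93 within replicates 2 and 3 (adjusted p = 0.0231). Its replicate sets did not stand apart as those of Cck and Chgb did. Tph1, the enzyme of the first step of serotonin synthesis in the gut, was not detected on any of the 8 arrays and was not tested.

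**Figure D2:**
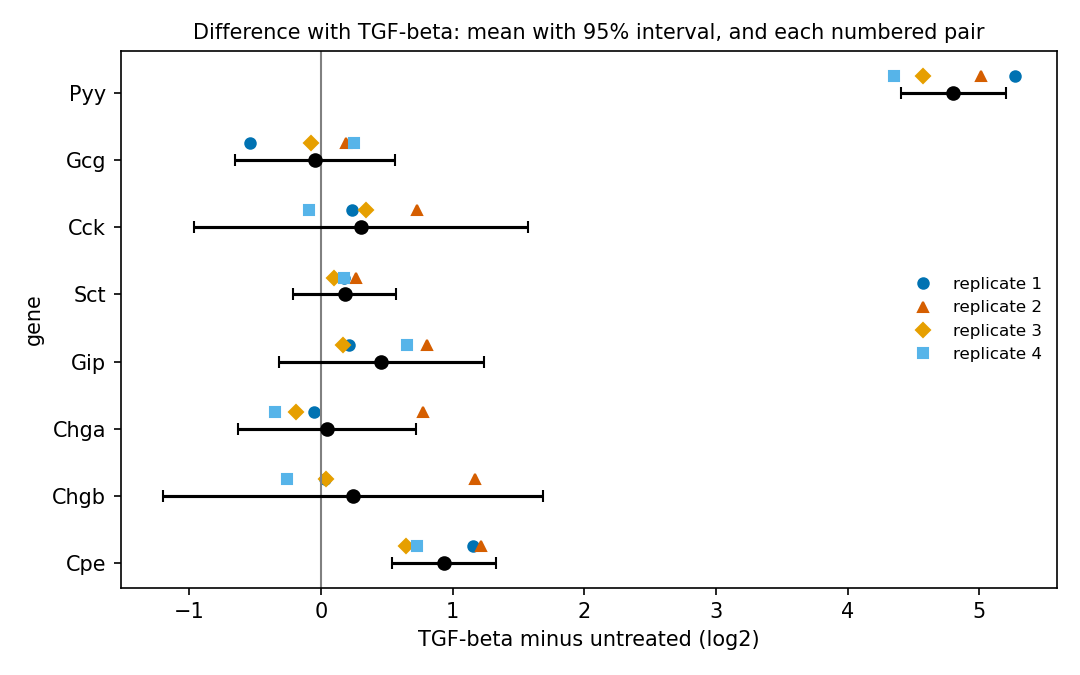
Log2 difference between TGF-beta and untreated samples (horizontal axis) for the 8 tested genes, as the mean with its 95% interval and as small points for each pair of samples with the same replicate number. Pyy lies at 4.80 and Cpe at 0.94, and the intervals of the other 6 genes include 0.

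In bulk samples, the number of cells of a type and the amount of RNA per cell cannot be told apart, so more Pyy cells and more Pyy RNA per cell would look alike, as would fewer cells of a type and less RNA per cell for a gene that is low.

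Besides the treatment, the replicates themselves divided these genes. In 5 of the 8 tested members (Cck, Sct, Gip, Chga and Chgb), every value of replicates 2 and 3 was above every value of replicates 1 and 4 (narrowly for Sct and Chga), a pattern found in 7.51% of all tested genes. For Chga this held for the best-detected probe, while the sets overlapped in the second tested probe. The sets of replicates were recognised from the arrays, by Xist and Eif2s3y, and are no groups of the study, so these differences are given without a test. The mean log2 difference between replicates 2 and 3 and replicates 1 and 4 was 1.91 for Chgb, 1.72 for Cck, 0.98 for Gip, 0.66 for Chga and 0.36 for Sct.

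Summed markers of absorptive, goblet and Paneth cells divided in the same way, and those of tuft cells the other way. The summed normalized intensity of the 10 enterocyte markers was 3416 to 4540 in replicates 1 and 4 and 15361 to 25672 in replicates 2 and 3. For the 7 goblet markers it was 672 to 1664 and 2482 to 5697, and for the 5 Paneth markers with a probe 9900 to 15018 and 17312 to 20712. The 7 tuft markers with a probe summed to 209 to 497 in replicates 1 and 4 and 125 to 175 in replicates 2 and 3. Of these 7, 5 were not detected on any array. Dclk1 had mean log2 intensities of 5.42 in replicates 1 and 4 and 5.45 in 2 and 3, so the tuft sum divided through Avil (7.91 and 6.36). Among the Paneth markers, the sets stood apart for Lyz1 and Ang4 and overlapped for Itln1, Pla2g2a and Mmp7, with Mmp7 lower by mean in replicates 2 and 3. The part of all these markers in the levels of Cck, Gip, Chga, Chgb and Sct was not tested.

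The effect of TGF-beta on the members was not shown to differ between the sets. A test of that difference (interaction of group and set, limma) called 0 of the 8 members, with adjusted p between 0.494 and 0.997 over their tested probes, against a background of 0.011% (1 gene of 9062). The division was thus seen in the levels of these genes.

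Of the other gut hormones and peptides, 19 of 20 listed genes had a probe and 6 were tested, with a median log2 difference of -0.04. Of these, 0 were called higher and 0 lower, against 19.4% of all tested genes called in either direction. Without adjustment, 1 of the 6, Guca2a, had a p under 0.05, as did at least 19.4% of all tested genes. Ghrl, which encodes the appetite hormone ghrelin, had a log2 intensity of 4.79, 7.21, 7.03 and 4.86 in untreated samples and 4.94, 7.51, 6.97 and 5.17 with TGF-beta. Sst, which encodes somatostatin, a brake on the release of other hormones, had 4.92, 7.42, 7.15 and 5.01 without TGF-beta and 5.04, 7.45, 7.0 and 4.98 with it.

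Both genes therefore followed the division of the replicates seen for Cck and Chgb, with mean differences between the sets of 2.24 for Ghrl and 2.27 for Sst on the log2 scale. Their differences with TGF-beta were 0.17 for Ghrl (adjusted p = 0.903) and -0.01 for Sst (adjusted p = 0.995). Insl5, a hormone gene of colonic enteroendocrine cells that make Pyy as well, was detected on 2 untreated arrays and 0 TGF-beta arrays and was not tested. Guca2a and Guca2b, which encode guanylin and uroguanylin, did not pass but did with the replicate block, against 31.6% of all tested genes called there. Guca2a had a log2 difference of -0.98 (adjusted p = 0.0719, and 0.000443 with the block), and its call changed in 5 of 21 alternatives. Guca2b had -0.71 (adjusted p = 0.555), and the adjusted p was 0.0457 within replicates 1 and 4 and 0.0442 within replicates 2 and 3.

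**Figure D3:**
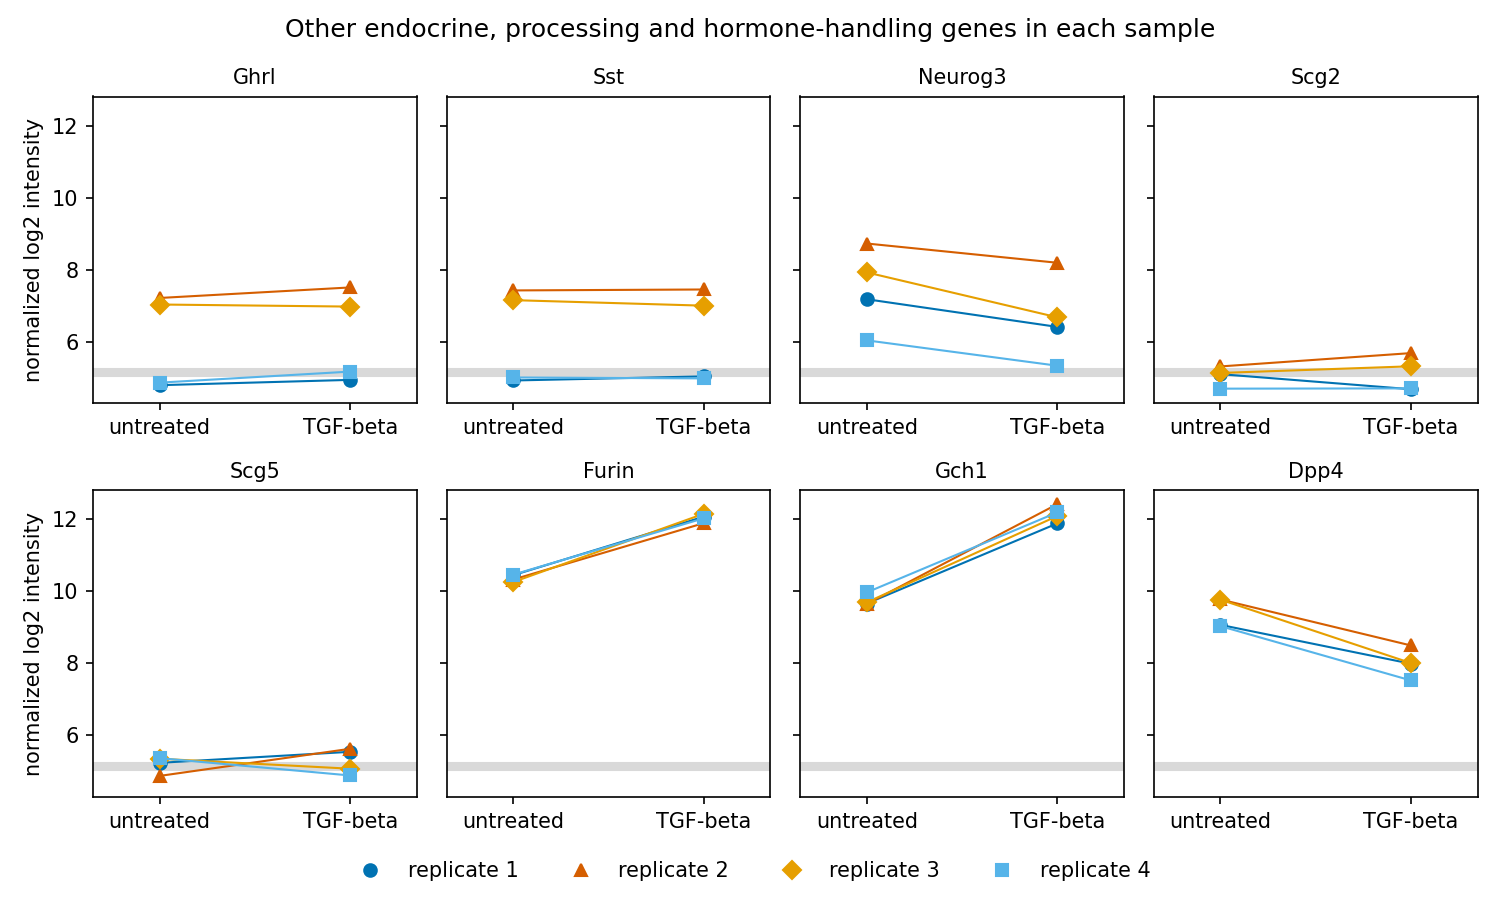
Normalized log2 intensity (vertical axis) of other endocrine, processing and hormone-handling genes in the untreated and TGF-beta samples, 1 point per sample with lines joining samples of the same replicate number and the range of the lowest detected signals as a grey band. Furin and Gch1 are higher in all 4 TGF-beta samples and Dpp4 is lower, while Ghrl and Sst divide by replicate.

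Among genes of prohormone processing, 7 of the 14 listed were tested, and 2 were called higher (Furin and Cpe) and 0 lower, against 9.57% higher and 9.88% lower over all tested genes. The median log2 difference was 0.56. Furin encodes a convertase of the general secretory route, which cuts many precursors, those of TGF-beta among them. It had a log2 intensity of 10.45, 10.33, 10.26 and 10.46 in untreated samples and 12.07, 11.89, 12.15 and 12.03 with TGF-beta. The groups were far apart, and the log2 difference was 1.66 (SE 0.128, adjusted p = 2.8e-05, 3.16-fold), with 1.46 from a second probe (adjusted p = 0.000325).

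The endocrine convertase gene Pcsk1 was detected on 1 of 8 arrays by 1 probe and on none by the other, so it was not tested, and Pcsk2 had no named probe. Scg5, which encodes a chaperone of the convertase made from Pcsk2, had a log2 difference of 0.08 (adjusted p = 0.845). With the replicate block, 4 of these 7 genes passed, with Pcsk6 and Pcsk7 higher as well, against 31.6% of all tested genes in either direction.

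Of the granins and genes of the dense-core granule, 16 of 32 were tested, with 3 called higher, 1 lower and a median log2 difference of 0.11. These 4 of 16 stand near the 19.4% of all tested genes that were called. Stx1a, a syntaxin of the cell membrane, Rab27b, a GTPase that tethers granules, and Vamp8, a vesicle SNARE that is common in exocrine and other epithelial cells, were the 3 that rose. Their log2 differences were 1.16 for Stx1a (adjusted p = 0.00148), 1.01 for Rab27b (adjusted p = 0.0172) and 0.89 for Vamp8 (adjusted p = 0.0229). Cadps2, which primes dense-core granules for release, fell by 0.80 on the log2 scale (adjusted p = 0.0332).

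These calls differ in firmness. That of Stx1a held in all 21 alternatives, whereas that of Rab27b was lost without untreated replicate 1 or without TGF-beta replicate 3, that of Vamp8 in 5 of 21 alternatives and that of Cadps2 in 7 of 20, with adjusted p of up to 0.0523, 0.0958 and 0.0917. The granin gene Scg2 had a log2 difference of 0.04 (adjusted p = 0.943).

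For serotonin synthesis and handling, 7 of 10 listed genes were tested, 1 was called higher and 0 lower, against 19.4% of all tested genes in either direction, and the median log2 difference was -0.11. Gch1 encodes the first enzyme in the synthesis of tetrahydrobiopterin, a cofactor of tryptophan hydroxylase and of nitric oxide synthases. The log2 intensity of Gch1 was 9.66, 9.65, 9.70 and 9.97 in untreated samples and 11.89, 12.42, 12.09 and 12.19 with TGF-beta. It rose 5.29-fold (log2 difference 2.40, SE 0.154, adjusted p = 1.21e-05), and by 1.82 from a second probe, while Tph1 itself was not detected. With the replicate block, Maob and Qdpr passed as lower, making 1 higher and 2 lower of the 7, against 31.6% of all tested genes in either direction.

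Among 34 transcription factor genes of the enteroendocrine lineage and its progenitors, 13 were tested, 2 were called higher and 0 lower, against 19.4% of all tested genes called in either direction, and the median log2 difference was 0.31. Foxa1, a forkhead factor of endodermal epithelium that takes part in enteroendocrine differentiation, had a log2 difference of 1.05 (SE 0.176, adjusted p = 0.00287). Prdm16 had 0.67 (SE 0.204, adjusted p = 0.0464), and its call was lost in 10 of 21 alternatives, with adjusted p of up to 0.184. Neurod1, which acts after Neurog3, was detected on 1 of 8 arrays and not tested.

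Neurog3 had a log2 intensity of 7.18, 8.73, 7.92 and 6.04 in untreated replicates 1 to 4, and 6.41, 8.19, 6.68 and 5.33 with TGF-beta. The TGF-beta sample was lower in all 4 pairs, by 0.53 to 1.25, although the spread between replicate numbers was wider than that and the groups overlapped. The log2 difference was -0.81 (SE 0.636, 95% interval -2.22 to 0.60, adjusted p = 0.435). Within replicates 1 and 4 the adjusted p was 0.399, and within replicates 2 and 3 it was 0.281. Of 20 alternatives, only 1 changed the call, the replicate block (adjusted p = 0.00315). A call for Neurog3 therefore rests on how the samples are paired, as for Gip.

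With that block, 4 of the 13 transcription factor genes passed as higher (Foxa1, Hes1, Prdm16 and Sox4) and 4 as lower (Hes6, Id2, Id3 and Neurog3), against 14.4% higher and 17.3% lower over all tested genes in that fit. Markers of crypt base stem cells moved as well in the fit without the block. There, 5 of 6 were called lower (Axin2, Lgr5, Lrig1, Olfm4 and Smoc2), against 9.88% of all tested genes called lower. The summed normalized intensity of the 6 was 6484 to 9532 in untreated samples and 3004 to 4219 with TGF-beta. The part of the stem cell markers in the value of Neurog3 was not tested.

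Nutrient sensors and channels of enteroendocrine cells gave 4 tested genes of 22, with a median log2 difference of -0.21. Of these, 0 were called higher and 0 lower, against 19.4% of all tested genes called in either direction. Without adjustment, 1 of the 4, Slc5a1, had a p under 0.05, as did at least 19.4% of all tested genes. Slc5a1, the sodium-glucose transporter of the gut, which is also a marker of enterocytes, had a log2 difference of -1.86 (adjusted p = 0.101, and 4.91e-05 with the replicate block).

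Receptors and receivers of gut hormones gave 5 tested genes of 25, with 1 called lower, 0 higher (19.4% of all tested genes were called in either direction) and a median log2 difference of -0.43. Dpp4 encodes dipeptidyl peptidase 4, a surface enzyme that inactivates glucagon-like peptide 1 and GIP and shortens peptide YY. The log2 intensity of Dpp4 was 9.07, 9.77, 9.77 and 9.03 in untreated samples and 7.99, 8.50, 8.01 and 7.53 with TGF-beta. All TGF-beta samples were below all untreated samples, and the log2 level fell by 1.41 (SE 0.247, adjusted p = 0.00363).

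Sort1, which encodes sortilin, a sorting receptor that binds neurotensin, had 4 tested probes. The brightest, which stands for the gene, gave a log2 difference of -0.48 (adjusted p = 0.0521), and 2 dimmer probes passed with -0.88 (adjusted p = 0.00496) and -0.66 (adjusted p = 0.0263). Sort1 passed as lower with the replicate block, as did Dpp4.

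**Figure D4:**
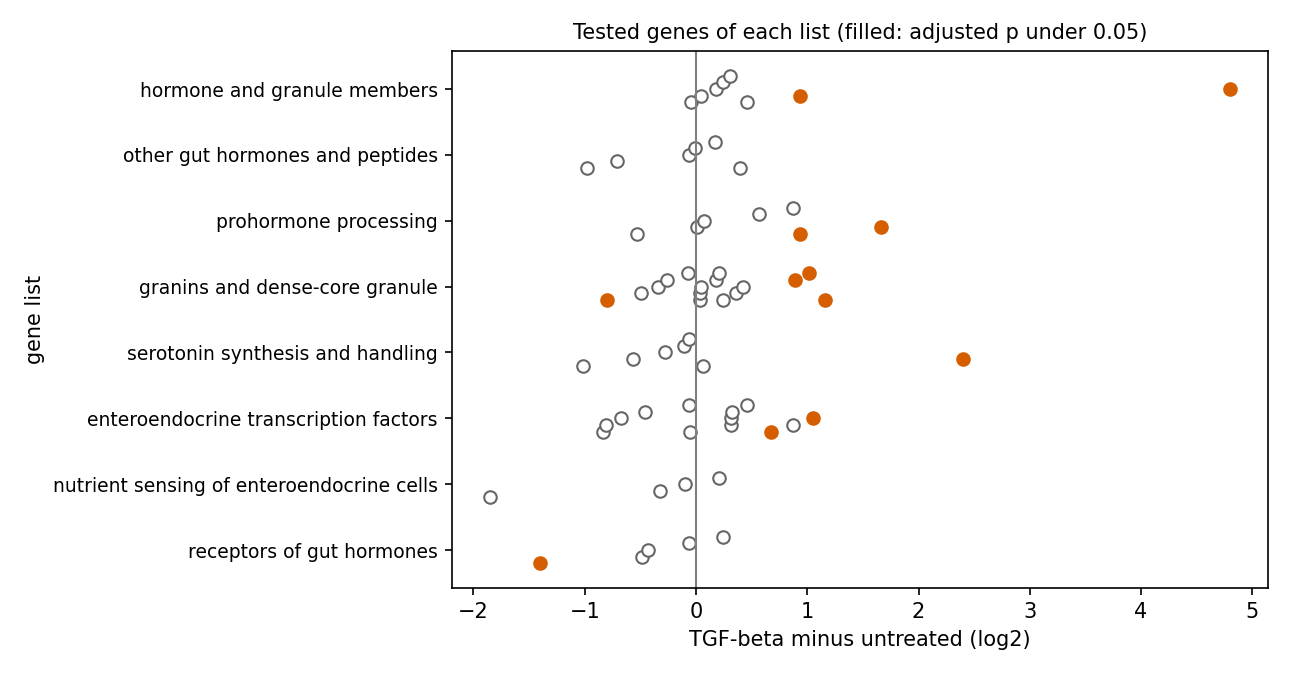
Log2 difference between TGF-beta and untreated samples (horizontal axis) for each tested member and each tested gene of the 7 gene lists, with filled points for genes at an adjusted p under 0.05. Pyy stands alone at 4.80, and Gch1 at 2.40 and Furin at 1.66 are the next highest filled points.

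The genes whose values followed those of Pyy most closely over the 8 arrays were Bag3 (Pearson r = 0.997), Vill (0.995) and Epb41l4a (0.994), out of 9054 genes compared. For Cpe they were Jpt2 (0.983), Galnt10 (0.980) and Htra1 (0.975). These r are descriptions over 8 arrays in 2 groups, which share the difference between treated and untreated samples.

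Of the marker lists of other tissues, the enteric neuron markers had a summed normalized intensity of 74 to 94 in untreated and 78 to 121 in TGF-beta samples. Elavl4, Prph, Tubb3, Uchl1, Gap43, Nefl and Nefm among them were not detected on any array, and the 1 tested marker, Ret, was not called. Of the pancreatic markers, Ctrb1, a digestive enzyme gene, was called higher by 3.99 on the log2 scale (adjusted p = 0.00349). It was detected on 0 untreated and 4 TGF-beta arrays, so it passed the detection filter through the TGF-beta arrays alone. Set against the lowest detected signals of the untreated arrays, its rise was at least 11.7-fold. Cela1, the other tested marker, had a log2 difference of 0.06 (adjusted p = 0.941), and Cpa1 and Ins2 were not detected on any array. The summed intensity of the pancreatic markers was 174 to 352 in untreated and 284 to 1894 in TGF-beta samples. Their part in the rise of Pyy was not tested.

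Pyy and Cpe kept their calls under another scaling. When arrays were scaled to a common median instead of quantile normalized, the median log2 difference of all tested genes went from -0.05 to -0.18, a shift of -0.13, and the share of called genes that were higher went from 49.2% to 34.5%. Under it the log2 difference was 4.72 for Pyy (adjusted p = 2.39e-08) and 0.77 for Cpe (adjusted p = 0.0141).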

How the data were processed

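Total RNA of 8 samples was hybridised to Illumina mouse bead arrays. Per the file headers, the deposited scanner table lists 45281 probes, and each array has a signal intensity that is not normalized and a detection p-value. The authors' processed value table holds, to judge by its values, log2 intensities after quantile normalization, and the sources used here do not give its method. The median of each of its columns was 7.1. Precision is limited by the number of arrays.

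Intensities were corrected for background by normexp, using the detection p-values, raised by an offset of 16, quantile normalized between arrays and put on a log2 scale (limma 3.58.1, R 4.3.3). Probes with a detection p under 0.05 on at least 4 of 8 arrays were tested, 15573 in all. The annotation gives 34885 probes 1 symbol, 18 several and 10378 none. The tested probe with the highest mean stands for a gene, and SE and 95% intervals are those of the fit. TGF-beta was compared with untreated samples in limma (lmFit and eBayes on the group, two-sided), and p-values were adjusted by Benjamini-Hochberg over all tested probes, with 0.05 as the threshold. The fit was also run on simulated data with independent noise on each array. Those data lack the division of the replicates, so they do not show how the fit handles it. Python 3.11.15 and matplotlib 3.10.9 made the figures.

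Samples with the same number deviated together from their group means, with correlations of 0.534, 0.512, 0.514 and 0.554. This is no more than a hint that the numbers may pair the samples, which the labels do not state. Much of the correlation is the division of replicates 1 and 4 from 2 and 3, and within these sets the correlations were 0.198 and 0.130. Marker sums add the linear normalized intensity of the brightest probe of each gene.

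The members, gene lists and tests were chosen with earlier results of these data known. Named were all members, list genes past the threshold (up to 8 per list), Neurog3, Neurod1, Pcsk1, Pcsk2, Scg2, Scg5, Sst, Ghrl and Insl5, and for each called member the 3 genes most like it. Guca2a, Guca2b, Slc5a1, Sort1, other genes named for passing with the replicate block, and the marker genes lie outside that rule and were named once their values were known. The choice of sequence motifs was also made after seeing the data. Alternatives were no background correction, an offset of 50, other scalings, the authors' log2 table, other filters, variance models and probe summaries, blocks, sets and leaving out each sample.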

Additional observations from a re-analysis of the deposited data

Results flagged for a closer look

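Among 26 groups of 4 values checked, formed by the 13 probes in each treatment group, 1 had a sample far from the others. For the Nts probe that was detected on a single array, TGF-beta replicate 2 had a log2 intensity of 5.57 against 4.73 to 4.86 in the other 3 TGF-beta samples. Chance alone flags about 1 in 20 such groups, and the probe was not tested.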

How the results depend on the processing

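The count of genes called higher with TGF-beta was 867, and it was 495 with median scaling, 1302 with the replicate block and 1308 with the set of replicates as a block. The count called lower was 895, and it was 1566 with the replicate block and 1580 with the set as a block; the cause was not tested. Leaving out each sample in turn gave 675 to 757 higher and 575 to 806 lower, with 575 without untreated replicate 1, and 2 members higher and 0 lower each time. Of the members, 1 was called higher under the stricter filter on dim probes, where Pyy is not tested. The replicate block called Gip (adjusted p = 0.0449) and changed no other call among the members. The log2 difference ranged from 2.63 to 4.95 for Pyy over 20 alternatives and from 0.43 to 1.07 for Cpe over 21, past the threshold in each. The smaller values came without background correction. No called difference changed sign. With no filter on dim probes, the untested Nts and Tph1 had log2 differences of 0.28 (adjusted p = 0.657) and 0.03 (adjusted p = 0.964). Low signal over background limits what can be said of Nts, Tph1, Chga and untreated Pyy.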
